A study of Mus musculus with 14 samples.

Results

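The spindle assembly checkpoint holds a dividing cell in metaphase until every chromosome is attached to spindle microtubules. The genes described here are Bub1, Bub1b, Bub3, Ttk, Mad1l1 and Mad2l1, which encode core checkpoint proteins, and Cenpe, which encodes the kinetochore motor that moves chromosomes along microtubules. They were chosen as a pathway, with earlier results of these data known, and their probes were found by gene symbol in the platform annotation. They are 7 of the 16593 named genes on the array, and each had 1 probe of the 25697.

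The samples were mouse oocytes at the germinal vesicle stage, that is, arrested in prophase of meiosis I before a spindle has formed. At the Rosa26 locus all 4 groups had a transgene for human Ago2 with myc and gfp tags, behind a lox-stop-lox cassette whose stop Cre removes. In Zp3-Cre-positive oocytes Cre is driven by the promoter of an oocyte zona pellucida gene, and Zp3-Cre-negative oocytes keep the stop. The groups were 4 Cre-positive and 4 Cre-negative samples without mimic, and 3 Cre-positive and 3 Cre-negative samples injected with 2 µM miR-15a mimic. The labels do not name what was injected into the set without mimic. All mice had been primed with 5 units of PMSG, a gonadotropin that makes follicles grow, 48 h earlier, and oocytes were kept overnight with 2 µM milrinone, which holds the arrest. No group had Cre without the transgene, so that Cre and the added Ago2 cannot be told apart. The labels give neither strain nor age, nor whether samples came from separate animals, so that p-values measure the spread between these samples, which may be technical.

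At an unattached kinetochore the kinase encoded by Ttk, also called Mps1, starts the signal and recruits Bub3 with the kinase Bub1. Mad1 then docks and turns Mad2 into the form that binds Cdc20, the activator of the anaphase-promoting complex. Mad2, Cdc20, Bub3 and the Bub1b product BubR1 make up the mitotic checkpoint complex, which keeps the ubiquitin ligase from marking securin and cyclin B for destruction. In mouse oocytes the pathway delays anaphase of meiosis I, and BubR1 also takes part in the prophase arrest. Oocytes at this stage store the transcripts that they will translate during maturation.

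The mimic copies miR-15a, a microRNA that recognises transcripts mainly through its seed, bases 2 to 8. The mature mouse sequence is shown because it is the agent of the second set, with the seed in capitals. It is the RefSeq entry of build GRCm38.p6, on the minus strand at chr14:61632075-61632096, and 10 mature mouse microRNAs in that table share the seed AGCAGCA, among them miR-16-5p and miR-15b-5p. Seed matches in the 7 transcripts were not analysed here.
mmu-miR-15a-5p: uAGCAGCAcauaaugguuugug

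Many genes that cycling cells use at mitosis carry near their transcription start a hexamer called the cell cycle genes homology region (CHR), which in cultured cells is bound by the MuvB complex. The promoters were searched for the form TTTGAA, for its variant TTTAAA, for the palindrome TTCGAA and for the form CTTGAA, on both strands, from 250 bases before to 50 bases after the start. All 7 genes were found in the RefSeq promoter table of GRCm38.p6, with 9 windows in all. Within 50 bases of the start, a form of the hexamer stood in 5 of the 9 windows, 1 each of Bub1, Bub1b, Bub3, Ttk and Cenpe, and in 12.1% of all 32851 windows. Over their whole length 6 of the 9 windows, of the same 5 genes, and 37.3% of all windows held one. No match was found for Mad1l1 or Mad2l1. The element CCAAT, searched on both strands, was also present in 6 of the 9 windows, of these 5 genes, and in 37.4% of all windows, and overlapped none of the hexamers. Both Bub3 windows are among the 6 in each of these whole-length counts. Their hexamers begin at -43 and -167 from the start, with CCAAT elements at the same spacing, as in overlapping windows. The same Bub3 sites are thus probably counted again. Matching letters are a description and do not show binding.

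The 30 bases around each match near the start are shown to let the forms be compared, with CHR hexamers and a CCAAT element in capitals. Positions are given with the first transcribed base as 0. The Bub1 stretch is chr2:127831828-127831857 on the minus strand, and its hexamer begins at 14. The others lie on the plus strand. They are chr2:118598231-118598260 for Bub1b, with the hexamer at 40, chr7:131560315-131560344 for Bub3, at -43, chr9:83834684-83834713 for Ttk, at 7, and chr3:135212565-135212594 for Cenpe, at 14. In Bub3 and Ttk the hexamer reads TTTGAA on the opposite strand.
Bub1: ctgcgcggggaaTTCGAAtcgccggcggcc
Bub1b: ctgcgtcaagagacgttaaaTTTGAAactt
Bub3: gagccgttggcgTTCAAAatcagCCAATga
Ttk: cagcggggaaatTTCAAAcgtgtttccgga
Cenpe: ccttgaggacatTTTAAActtaaaggcggg

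Signal was measured on 14 one-colour Illumina arrays. Mean raw signal per array was 118 to 151 intensity units without mimic and 339 to 380 with mimic, and 11652 to 13619 and 13129 to 13715 probes were detected. The 2 sets were deposited and normalized as separate tables, so that levels with and without mimic are given side by side and not compared. All 14 oocyte marker genes on the array, such as Zp3 and Gdf9, were detected on every array. Of 16 granulosa and cumulus markers 4 passed the detection filter without mimic (Fshr, Gja1, Kitl and Nr5a2) and 6 with it (these, Has2 and Inhba), whereas Fst and Amh passed in neither set. The mean log2 signal over the granulosa list was 4.55 to 4.65 in Cre-positive and 4.50 to 4.58 in Cre-negative samples without mimic, and 5.20 to 5.26 against 5.15 to 5.21 with mimic, and its part in the results was not tested. Of 11 theca and stroma markers Acta2 and Cyp11a1 passed without mimic and Acta2 with it. Of 7 blood and immune markers Laptm5 and Pecam1 passed in both sets, detected on every array. The part of these 2 lists was not tested either. Ago2 was higher in Cre-positive oocytes by 1.97 ± 0.113 without mimic (SE, n = 4 and 4, limma adjusted p = 9.94e-09) and by 2.35 ± 0.115 with mimic (n = 3 and 3, adjusted p = 0.000344) on the log2 scale. Whether this mouse probe detects RNA of the human transgene was not tested. Cre_pos replicate 4 stood apart from its set, at 28.2 on the first principal component against -7.57 to 2.72 for the others, and results that turn on it are also given without it.

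All 7 transcripts were detected on every one of the 14 arrays, and none differed between Cre-positive and Cre-negative oocytes after adjustment over all probes. The transcript nearest to a call was Cenpe, which stood 1.22-fold higher in Cre-positive oocytes without mimic and 1.39-fold higher with mimic. The size of both differences moved with the background correction. Bub1 stood 1.12- and 1.15-fold higher, and Bub3, Mad1l1, Mad2l1, Bub1b and Ttk lay between 0.854- and 1.09-fold. Without mimic limma called 0 of the 7 probes, where 0.0382% of 13080 probes were called, and 1 of the 7 had an unadjusted p under 0.05, where 4.76% of all probes did. With mimic it called 0 of 7, where 0.118% of 13563 were called, and again 1 of the 7 had an unadjusted p under 0.05, where 7.35% did. That probe was Cenpe in both sets. These counts turned on single arrays. By limma, the unadjusted p of Cenpe without mimic was 0.0521 without Cre_pos replicate 4 and 0.0542 without Cre_neg replicate 4. With mimic it was 0.0608 without miR15_Cre_pos replicate 3 and 0.0596 without miR15_Cre_neg replicate 1. Bub1b without mimic had an unadjusted limma p of 0.0145 without Cre_pos replicate 3, and Bub1 with mimic one of 0.0406 without miR15_Cre_neg replicate 3. Without mimic the p of Cenpe was also 0.0632 without background correction and 0.0789 with median scaling, and with mimic that of Bub1 was 0.0408 without the detection filter. In such bulk samples fewer cells of a type and less RNA per cell cannot be told apart.

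**Figure D1:**
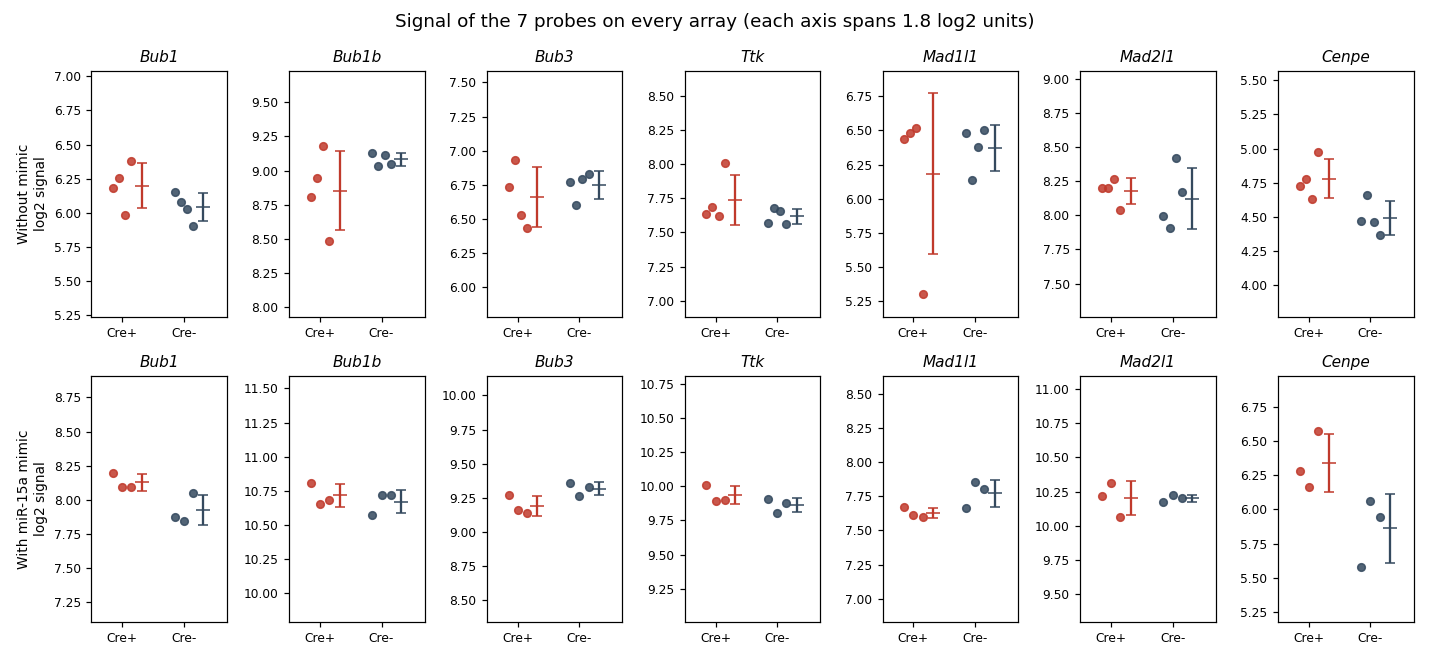
Log2 signal after background correction and normalization (y axis, 1.8 log2 units in every panel) of the 7 probes in Cre-positive (red) and Cre-negative (dark) oocytes, without mimic in the upper row and with miR-15a mimic in the lower. Points are arrays, and the bar beside them is the mean ± SD (n = 4 and 4 above, 3 and 3 below). Only Bub1 and Cenpe with mimic show groups that do not overlap, and the lowest Mad1l1 point, 5.30, is Cre_pos replicate 4.

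Bub1 (probe ILMN_2632462) encodes the checkpoint kinase that also marks histone H2A at centromeres and thereby recruits shugoshin. Without mimic its log2 signal was 6.18, 6.26, 5.98 and 6.38 in Cre-positive oocytes, against 6.15, 6.08, 6.03 and 5.90 in Cre-negative oocytes. The groups overlapped through Cre_pos replicate 3, and the other 3 Cre-positive samples lay above every Cre-negative one. With mimic the signal was 8.20, 8.09 and 8.09 in Cre-positive oocytes, against 7.88, 7.85 and 8.05 in Cre-negative oocytes. These groups did not overlap. The same held for Cenpe, that is, for 2 of the 7 probes in this direction, where 6.28% of all probes in that set did so. Without mimic 0 of the 7 did so, where 1.15% of all probes did. Bub1 thus differed by 0.16 ± 0.111 on the log2 scale (SE, n = 4 and 4, limma adjusted p = 0.956) without mimic and by 0.20 ± 0.0977 (n = 3 and 3, adjusted p = 0.735) with mimic. The first value was 0.0982 without Cre_pos replicate 4. Before correction and normalization, its raw signal with mimic was 2.75, 2.62 and 2.38 times the array median in Cre-positive oocytes. In Cre-negative oocytes it was 2.40, 2.32 and 2.55 times, so that on this scale the groups overlapped.

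The kinase-related protein BubR1, encoded by Bub1b (probe ILMN_2985969), is the subunit of the checkpoint complex that blocks Cdc20. Its signal without mimic was 8.81, 8.95, 9.18 and 8.48 in Cre-positive oocytes and 9.13, 9.03, 9.12 and 9.05 in Cre-negative oocytes. The SD was 0.292 over the Cre-positive and 0.0473 over the Cre-negative samples, and Cre_pos replicate 4 was lowest and Cre_pos replicate 3 highest of the 8. The difference was -0.23 ± 0.128 (SE, n = 4 and 4, limma adjusted p = 0.956), and -0.10 without Cre_pos replicate 4. With mimic Bub1b was at 10.81, 10.65 and 10.69 in Cre-positive oocytes, against 10.57, 10.72 and 10.72 in Cre-negative oocytes. There the groups overlapped and the difference was 0.05 ± 0.0957 (n = 3 and 3, adjusted p = 0.942).

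Bub3 (probe ILMN_2655944) is the small partner protein that brings Bub1 and BubR1 to phosphorylated kinetochores. Its signal was 6.74, 6.94, 6.53 and 6.44 in Cre-positive oocytes without mimic, against 6.77, 6.60, 6.79 and 6.83 in Cre-negative oocytes. The highest and the lowest of the 8 samples were both Cre-positive. With mimic it was 9.27, 9.16 and 9.14 in Cre-positive oocytes, against 9.36, 9.27 and 9.33 in Cre-negative oocytes, where miR15_Cre_pos replicate 1 overlapped the Cre-negative range. On the log2 scale Bub3 differed by -0.09 ± 0.119 without mimic and by -0.13 ± 0.0896 with mimic (SE, limma adjusted p = 0.961 and 0.812), and the first value was -0.0134 without Cre_pos replicate 4.

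Ttk (probe ILMN_2438303) encodes the Mps1 kinase at the head of the pathway. Without mimic it was at 7.64, 7.69, 7.62 and 8.01 in Cre-positive oocytes and at 7.57, 7.68, 7.66 and 7.57 in Cre-negative oocytes. Cre_pos replicate 4 alone stood clearly above the other 7 samples, which lay within 7.57 and 7.69. The difference was 0.12 ± 0.110 (SE, limma adjusted p = 0.956), and 0.0328 without that array. With mimic the values were 10.01, 9.89 and 9.90 in Cre-positive oocytes, against 9.91, 9.81 and 9.88 in Cre-negative oocytes. The groups overlapped, and the difference was 0.07 ± 0.0891 (adjusted p = 0.903).

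Mad1l1 (probe ILMN_2758523) encodes Mad1, the kinetochore platform for Mad2. Without mimic it was at 6.43, 6.48, 6.52 and 5.30 in Cre-positive oocytes, against 6.48, 6.13, 6.38 and 6.50 in Cre-negative oocytes. Cre_pos replicate 4 was far below every other sample of the set, in raw signal too, at 108 intensity units against 123 to 158 on the other arrays. The difference was -0.19 ± 0.203 (SE, limma adjusted p = 0.959), and without that array it was 0.10, in the other direction. With mimic Mad1l1 stood at 7.67, 7.61 and 7.60 in Cre-positive oocytes, against 7.66, 7.86 and 7.80 in Cre-negative oocytes, with an overlap between miR15_Cre_pos replicate 1 and miR15_Cre_neg replicate 1. There the difference was -0.15 ± 0.0932 (adjusted p = 0.797).

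Mad2l1 (probe ILMN_2778872) encodes Mad2, the protein that captures Cdc20. Its signal without mimic was 8.20, 8.20, 8.27 and 8.04 in Cre-positive oocytes and 7.99, 7.91, 8.42 and 8.17 in Cre-negative oocytes, so that the Cre-positive samples lay wholly inside the Cre-negative range. With mimic it was 10.22, 10.32 and 10.07 in Cre-positive oocytes and 10.17, 10.23 and 10.21 in Cre-negative oocytes. The differences were 0.05 ± 0.119 without mimic (SE, limma adjusted p = 0.975) and -0.000617 ± 0.0977 with mimic (adjusted p = 1). The 95% intervals, -0.20 to 0.30 and -0.23 to 0.23, correspond to 0.872- to 1.23-fold and 0.854- to 1.17-fold. The direction of the first changed with median scaling of the arrays, to -0.0304.

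**Figure D2:**
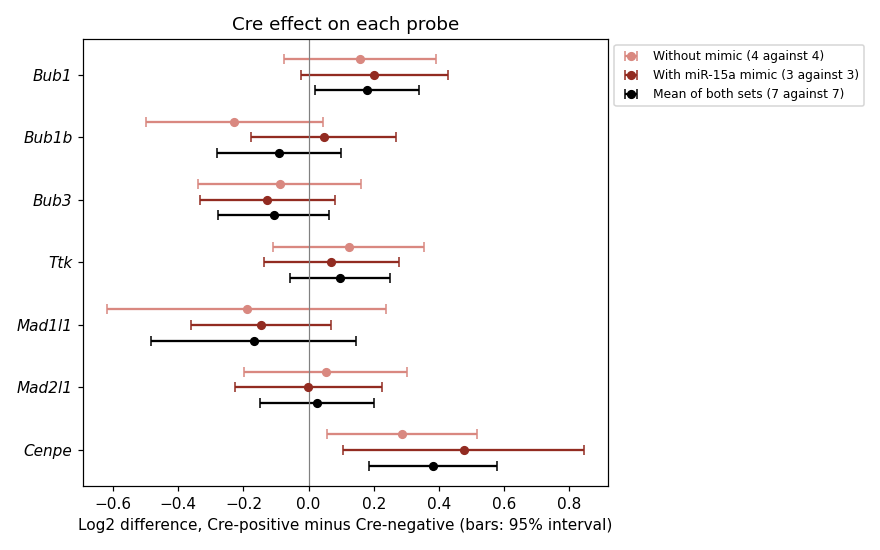
Log2 difference of Cre-positive minus Cre-negative oocytes (x axis) for each of the 7 genes, with 95% intervals from the limma fit over all probes, without mimic (pale red, 4 against 4), with miR-15a mimic (dark red, 3 against 3) and as the mean of both sets (black). All 3 Cenpe intervals lie above 0, at 0.06 to 0.52, 0.11 to 0.85 and 0.19 to 0.58. None of the 21 values passed after adjustment over all probes.

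Cenpe (probe ILMN_2759415) encodes the kinesin that tethers kinetochores to microtubule plus ends and carries misaligned chromosomes to the spindle equator. Without mimic its log2 signal was 4.73, 4.78, 4.63 and 4.97 in Cre-positive oocytes, against 4.47, 4.66, 4.47 and 4.37 in Cre-negative oocytes. The groups overlapped by Cre_pos replicate 3 and Cre_neg replicate 2 alone, and the other 3 Cre-positive samples lay above every Cre-negative one. With mimic it was 6.28, 6.16 and 6.57 in Cre-positive oocytes, against 5.58, 6.06 and 5.95 in Cre-negative oocytes, with no overlap. The difference was 0.29 ± 0.110 (SE, n = 4 and 4, limma adjusted p = 0.956, exact two-sided permutation p = 0.0571) without mimic, where 4 against 4 allow no p below 0.0286. Without Cre_pos replicate 4 it was 0.22 ± 0.104. With mimic it was 0.48 ± 0.160 (n = 3 and 3, limma adjusted p = 0.557, exact two-sided permutation p = 0.1, the smallest that 3 against 3 can give).

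The Cenpe probe was dim, and the size of its difference moved with the background correction. Without mimic its raw signal was 1.04, 1.08, 1.05 and 1.14 times the median of its array in Cre-positive oocytes, against 1.02, 1.06, 1.02 and 0.993 times in Cre-negative oocytes. Its detection p there reached 0.0175 in Cre-positive and 0.0489 in Cre-negative oocytes, close to the detection limit of 0.05. With mimic the raw signal was 1.28, 1.25 and 1.35 times the array median in Cre-positive oocytes and 1.10, 1.22 and 1.19 times in Cre-negative oocytes. On this uncorrected scale 2 of the 4 Cre-positive samples lay above every Cre-negative one without mimic, and all 3 did so with mimic. When no background was taken off, Cenpe differed by 0.0851 (log2) without mimic and by 0.176 with mimic, and with an offset of 1 in place of 16 it was 0.737 and 0.615. The direction was the same under all 3 settings, whereas the fold change cannot be read as that of the transcript.

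**Figure D3:**
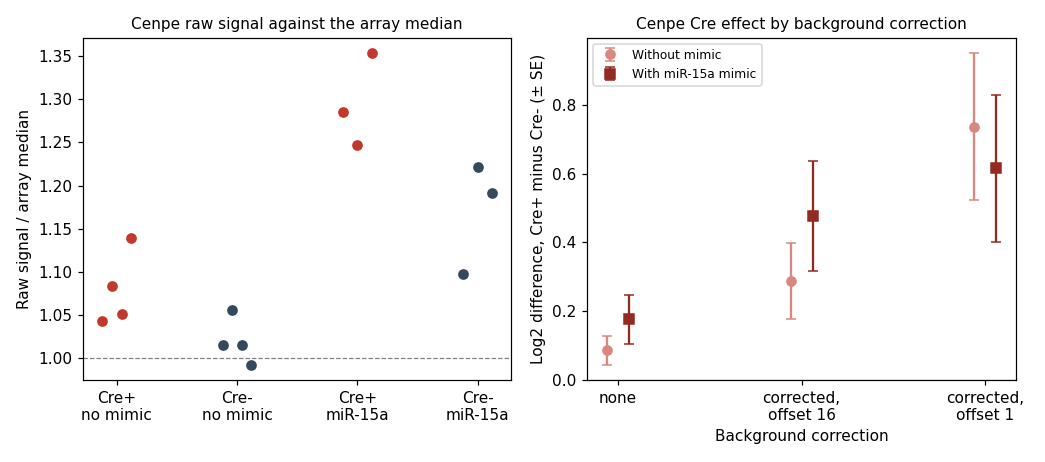
Left, Cenpe raw signal divided by the median of its array (y axis, no unit), 1 point per array, with the dashed line at the array median. Right, log2 difference of Cre-positive minus Cre-negative oocytes (y axis, ± SE) by the background correction (x axis). Raw signal stays between 0.993 and 1.35 times the median, and the difference spans 0.0851 to 0.737.

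The mean of the Cre effects of both sets was estimated in a fit of all 14 arrays, each effect being taken inside its own table. The sets share no array, but the values of all 7 genes in each were already known when this mean was taken. Cenpe averaged 0.38 ± 0.0932 (SE, 1.30-fold, 95% interval 1.14- to 1.49-fold, limma adjusted p = 0.112) and ranked 79th of 12484 probes by p. The average was 0.130 without background correction and 0.676 at an offset of 1. Both lie outside that 95% interval, which is 0.19 to 0.58 on the log2 scale. In this comparison 0.433% of probes were called and 8.08% had an unadjusted p under 0.05. Permuting Cre status within each table gave an exact two-sided p of 0.00286 for Cenpe among 1400 arrangements, which can give 0.00143 at the lowest. That p belongs to 1 probe and takes no account of the number of probes. Bub1 was the other of the 7 with an unadjusted p under 0.05, at 0.18 ± 0.0760 (SE, 1.13-fold, limma adjusted p = 0.551, exact permutation p = 0.0171). The permutation p of Bub1 likewise takes no account of the number of probes. Without Cre_pos replicate 4 the mean effect was 0.35 ± 0.0917 for Cenpe (SE, limma adjusted p = 0.179) and 0.15 ± 0.0711 for Bub1 (limma unadjusted p = 0.0513). The unadjusted limma p of Bub1 was also above 0.05, at 0.0503 to 0.0717, without each of Cre_pos replicate 2, Cre_neg replicate 4, miR15_Cre_pos replicate 1 and miR15_Cre_neg replicates 1 and 2, and it was 0.277 with median scaling.

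For the other 5 genes the mean effect lay between -0.17 for Mad1l1 and 0.10 for Ttk, with limma adjusted p between 0.781 and 0.957. The 95% intervals were 0.903- to 1.15-fold for Mad2l1, 0.961- to 1.19-fold for Ttk, 0.825- to 1.04-fold for Bub3, 0.823- to 1.07-fold for Bub1b and 0.716- to 1.11-fold for Mad1l1. Without Cre_pos replicate 4 the mean effect was -0.0213 for Mad1l1, -0.0285 for Bub1b, -0.0699 for Bub3, 0.0514 for Ttk and 0.0485 for Mad2l1.

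The difference between the Cre effect with mimic and that without it was tested in the same fit. None of the 7 passed the test, with limma adjusted p = 1 for each, and 0 of the 7 had an unadjusted p under 0.05, where 0 of all 12484 probes were called and 4.67% had such a p. For Bub1b it was 0.27 ± 0.180 (SE, limma unadjusted p = 0.146), but 0.149 without Cre_pos replicate 4 and 0.384 without Cre_pos replicate 3, where its unadjusted limma p was 0.0293. For Cenpe it was 0.19 ± 0.186, but 0.0744 without miR15_Cre_pos replicate 3, 0.0468 without miR15_Cre_neg replicate 1, and 0.288 without miR15_Cre_neg replicate 2. For Mad1l1 it was 0.04, but -0.249 without Cre_pos replicate 4. With an offset of 1 the Cenpe difference was -0.122, so that its direction rests on the treatment of background.

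Among themselves the 7 genes did not move as a block. The deviation of each probe from its mean over the set was correlated over the 14 arrays, which share the normalization of their table. Each mean was taken over Cre-positive and Cre-negative samples together, so that a difference between them stays in the deviations. These correlations are descriptions. Bub1 varied together with Ttk (r = 0.727) and Cenpe (r = 0.703), and without Cre_pos replicate 4 these values were 0.635 and 0.632. The strongest opposed pair was Mad1l1 with Ttk, at r = -0.914, and at -0.527 without that array. Bub1b with Mad1l1 gave 0.798, but 0.143 without it, and Bub1b with Ttk gave -0.740, but -0.0452. Of the 3 genes of the Bub family, Bub1 and Bub1b gave -0.514 and Bub1b and Bub3 0.350, which became -0.145 and -0.304.

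**Figure D4:**
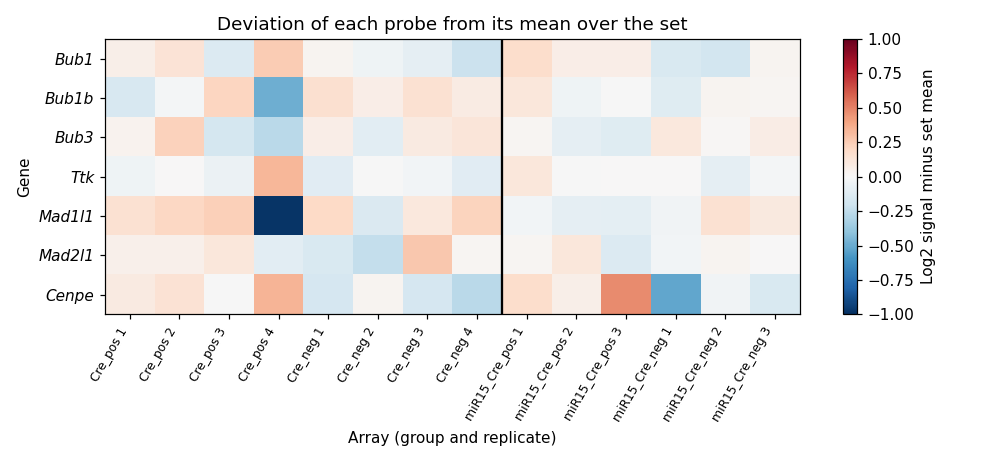
Deviation of the log2 signal of each gene (rows) from its mean over the set (colour, log2 units) on each of the 14 arrays (columns, sets separated by the black line). The darkest cell is Mad1l1 on Cre_pos replicate 4, an array on which Bub1b was also low and Ttk high.

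The genes whose signal followed each member most closely were taken from 8327 others by the same measure. For Cenpe they were Znhit2 (r = 0.912), the kinase gene Cdk7 (0.894) and Arhgef4 (0.891), and without Cre_pos replicate 4 these values were 0.929, 0.876 and 0.872. For Bub1 they were Ndufb10 (0.891), the chaperonin gene Cct5 (0.865) and Nom1 (0.854). Bub3 was followed by Dguok (0.950), the histone demethylase gene Kdm1a (0.902) and Elovl5 (0.890), and Mad2l1 by Mrpl28 (0.825), Clk3 (0.816) and Osbpl9 (0.801). For Mad1l1 they were the checkpoint kinase gene Chek1 (0.956), 9530068E07Rik (0.946) and Aftph (0.937). Without the array that stands apart the last 3 values were 0.729, 0.616 and 0.515. Bub1b was closest to Cox17 (0.920), Selenow (0.911) and Clta (0.911), and Ttk to Ccdc117 (0.921), Aatf (0.916) and Odc1 (0.914), and without that array these 6 values were 0.749, 0.861, 0.686, 0.768, 0.630 and 0.824. Over the arrays with mimic alone r was 0.145 for Aftph, 0.438 for Clta, 0.524 for Mrpl28 and 0.581 for Aatf. For the other genes named it was 0.706 or more. No chance level was computed for the highest of so many values.

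The wider pathway was described by 4 gene lists, in which limma called no probe in either direction in either set. Over all probes 48.8% lay above 0 without mimic and 50% with mimic, with medians of -0.00286 and 0.000167. An unadjusted limma p under 0.05 was found for 4.76% of all probes without mimic and 7.35% with mimic. The counts below stand beside these shares, and some genes have several probes in a list. Of the 7 genes themselves 4 lay above 0 in each set, with medians of 0.05 and 0.05.

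The partners of the checkpoint at the kinetochore and Cdc20 held 15 tested probes of 6 genes. Of these 5 lay above 0 without mimic and 4 with mimic, at medians of -0.05 and -0.07, and 2 and 1 had an unadjusted p under 0.05. Cdc20, the target of the checkpoint complex, was lowest without mimic, at -0.38 ± 0.121 by 1 probe (SE, limma adjusted p = 0.862) and at -0.24, -0.16 and -0.04 by its other 3. With mimic the first of these probes gave -0.10 and the others 0.06, 0.08 and -0.03. Highest was Zw10, part of the complex that brings dynein to kinetochores, at 0.29, against -0.12 and -0.12 by its other probes. With mimic Zwilch, of the same complex, was lowest, at -0.33 ± 0.123 (adjusted p = 0.609) and at -0.16 and -0.22 by its other probes. Without mimic these 3 gave -0.05, 0.07 and 0.18. Mad2l1bp, which helps take Mad2 out of the checkpoint complex, was highest at 0.12 by 1 probe, but at -0.32 and -0.07 by its others.

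For the anaphase-promoting complex and its regulators 21 probes of 16 genes were tested without mimic and 20 of 15 with mimic. Above 0 lay 11 and 14 of them, at medians of 0.00157 and 0.09, and 2 and 1 had an unadjusted p under 0.05. The same 2 genes marked the ends of the list in both sets. Anapc4, a scaffold subunit, stood at 0.40 ± 0.165 without mimic and 0.28 ± 0.128 with mimic (SE). Ube2c, the ubiquitin-conjugating enzyme that starts chains on the substrates of the complex, stood at -0.26 ± 0.114 and -0.50 ± 0.130 (limma adjusted p = 0.956 and 0.455). As the mean of both sets Ube2c was at -0.38 ± 0.0873 and Anapc4 at 0.34 ± 0.125 (SE, limma adjusted p = 0.0766 and 0.453). Both genes were named for their values in these sets, which were thus known when the means were taken.

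Structural kinetochore and centromere genes gave 27 tested probes of 21 genes without mimic and 28 of 22 with mimic. Above 0 lay 13 and 17, at medians of -0.0133 and 0.02, and 0 and 1 had an unadjusted p under 0.05. Mis12, which anchors microtubule receptors to the centromere, was highest in both sets, at 0.26 ± 0.128 and 0.18 ± 0.115 (SE, limma adjusted p = 0.956 and 0.797). Lowest was Cenpx without mimic, at -0.23 by 1 probe and 0.13 by its other tested probe. With mimic it was Nsl1, a partner of Mis12, at -0.40 ± 0.146 (adjusted p = 0.598) by a probe detected on 3 of the 6 arrays.

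Factors that act on kinetochore microtubules gave 21 tested probes of 12 genes in each set. Above 0 lay 7 without and 10 with mimic, at medians of -0.04 and -0.02, and 2 and 0 had an unadjusted p under 0.05. Ska2, of the complex that follows shrinking microtubule ends, was lowest in both sets, at -0.40 ± 0.136 by 1 probe and -0.17 by the other without mimic (SE). With mimic these 2 probes gave -0.18 and -0.32. The microtubule depolymerase Kif2a was highest, at 0.19 and 0.47 by 1 probe, against -0.05 and 0.02 without and 0.19 and 0.00828 with mimic by its others.

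**Figure D5:**
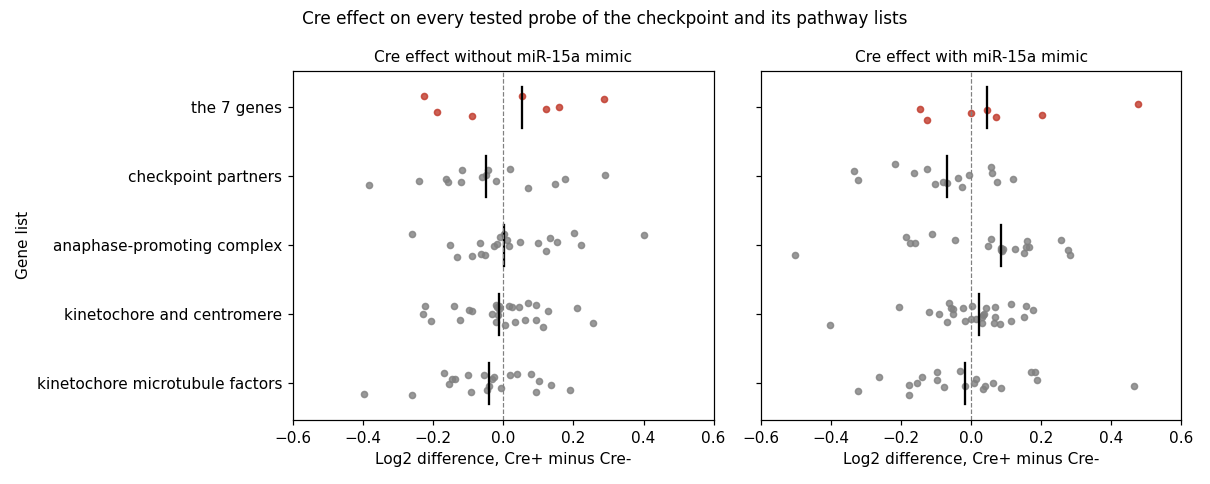
Log2 difference of Cre-positive minus Cre-negative oocytes (x axis) for every tested probe of the 7 genes (red) and of 4 pathway lists (grey), without mimic on the left and with miR-15a mimic on the right. Points are probes and black bars are list medians. All values lie between -0.502 (Ube2c) and 0.476 (Cenpe), both with mimic.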

How the data were processed

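Total RNA was amplified, labelled with biotin and hybridised to 1-colour Illumina arrays, per the labels' protocols. The authors deposited raw probe intensity with a detection p-value for each array, and a log2 table, 1 pair for each set. The deposited log2 values equalled a quantile normalization of log2 raw intensity without background correction. No source used here names the scanner or its software.

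In R 4.3.3, limma 3.58.1 was used: its function nec took off background (negative controls inferred from the detection p, offset 16), and the log2 values of each set were then quantile normalized. Probes detected at p under 0.05 on at least 4 arrays without mimic, or 3 with it, were tested, each probe on its own. Two-sided limma tests were adjusted by the Benjamini-Hochberg method over all tested probes, at 0.05. The sets were normalized separately, so mimic against no mimic was not tested. The offset shrinks the fold changes of dim probes. The number of arrays limits the precision. No arrays held identical values.

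Symbols came from the platform annotation, and all 7 genes matched the RefSeq gene table. Sequences came from RefSeq tables of GRCm38.p6. The genes and lists were chosen with earlier results of these data known. Named were all 7 genes, the highest and lowest probe of each list with the other probes of that gene, and the 3 genes most like each member. The fits were tested on simulated data. Alternatives covered background, scaling, filter, probe choice, spread, array weights, the replicate number as a block and leaving out each array. Figures were drawn with matplotlib 3.10.9 in Python 3.11.15.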

Additional observations from a re-analysis of the deposited data

Results flagged for a closer look

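In 2 of the 14 combinations of gene and group with 4 samples, 1 array lay farther from the others than Dixon's limit of 0.829 for the gap over the range. Chance gives about 1 such case in 20. Both came from Cre_pos replicate 4, the array that also stood apart over all probes. Its Mad1l1 signal was 5.30 (log2), with a gap of 0.933 of the range. Its Ttk signal was 8.01, with a gap of 0.841 of the range.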

How the results depend on the processing

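None of the 7 genes was called under any alternative run in the 4 comparisons, and of 616 recomputed values 29 changed direction. The runs without background correction, with the deposited normalized values and with the series values gave the same values. They are nevertheless counted separately in these totals. The cause of the changes below was not tested, except that leaving out an array lowers the number of samples.

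Cenpe kept its direction in both Cre effects and in their mean under every alternative, and its mean effect ranged from 0.130 to 0.676, with adjusted p from 0.0804 (without miR15_Cre_neg replicate 2) to 0.325. Median scaling gave Mad2l1 -0.0304 without mimic, 0.0101 with mimic, -0.0101 as the mean and 0.0405 for the difference between the sets, where it also gave Bub3 0.0561 and Ttk 0.0321. Array weights gave Mad2l1 0.0160 with mimic, and Mad1l1 -0.161 and Ttk 0.00574 for the difference. For Mad1l1 the difference was -0.00873 without background correction and with the deposited normalized or series values, and for Cenpe it was -0.122 at an offset of 1.

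Leaving out 1 array at a time gave, without mimic, -0.0178 to 0.153 for Mad2l1 and -0.302 to 0.103 for Mad1l1. With mimic it gave -0.0574 to 0.0668 for Mad2l1 and -0.00285 to 0.0771 for Bub1b, and as the mean -0.00919 to 0.0762 for Mad2l1. For the difference it gave -0.249 to 0.156 (Mad1l1), -0.113 to 0.0536 (Bub3), -0.154 to 0.0172 (Mad2l1), -0.0923 to 0.0372 (Ttk) and -0.0293 to 0.110 (Bub1).

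Over all probes the 5 calls without mimic became 2 at an offset of 1 and 2 without the filter. The 16 with mimic became 30 without background correction and with deposited or series values, 10 at an offset of 1, 26 with median scaling, 38 with a trended robust spread, 52 with a spread shared by both sets, and 2 (without miR15_Cre_neg replicate 1) to 17 with an array left out, with 8 without miR15_Cre_neg replicate 2 or 3 or miR15_Cre_pos replicate 1 or 2. The 0 calls for the difference became 4 without background correction, with deposited or series values and with array weights, 3 with median scaling, 1 without the filter, 2 with the trend and 0 to 6 with an array left out (6 without miR15_Cre_pos replicate 3, 1 without Cre_neg replicate 4). The 54 calls of the mean became 32 at an offset of 1 and 29 with the brightest probe per gene.

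Without mimic, deviations of samples of one number gave r of -0.0719 to 0.00945, against highest values of 0.0282 to 0.145 between different numbers. With mimic, r was 0.0422, 0.0737 and 0.194 for numbers 1, 2 and 3, against highest values of 0.124, -0.0267 and -0.0173. These values cannot decide whether samples were paired. With the replicate number as a block 5, 4, 0 and 43 probes were called without mimic, with mimic, for the difference and for the mean.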
